A study of Mus musculus with 9 samples.

Results

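The 40 genes described here encode the machinery that copies DNA: 11 licensing factors, 8 factors of origin firing and helicase assembly, 8 polymerase and primase subunits, 6 genes of the sliding clamp and its loader, 4 genes of single-strand binding and lagging-strand maturation, and 3 genes of nucleotide supply. The rule takes them by name for their function and uses no measured value, although earlier results of these data were known when it was set. All 40 were found among the 23201 named genes of the series, and each was represented by the RefSeq transcript with the highest mean level over the 9 libraries. The tissue was the cerebral cortex of mouse embryos at E13.5, on a strain background labelled C57BL/6+C57BL/6J+CBA. The 3 groups held 3 libraries each: control, Sfpq heterozygous (Sfpq+/-, labelled sfpq_hetero_KO) and Sfpq homozygous (Sfpq-/-, labelled sfpq_homo_KO). Sfpq encodes a nuclear protein that binds RNA and takes part in transcription and splicing. The sources used here do not give a Cre driver, the deleted part of Sfpq or any allele the controls may carry. RNA was depleted of ribosomal RNA and sequenced, and levels are RPKM, reads per kilobase of transcript scaled to library size.

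At E13.5 the cortex holds dividing progenitors, which copy their genome in every cycle, beside neurons that have left the cycle. In G1 phase the origin recognition complex, Cdc6 and Cdt1 load the ring-shaped MCM2-7 helicase onto DNA, which is called licensing; geminin (Gmnn) blocks Cdt1 afterwards so that each origin is used once. At the start of S phase, cyclin E with its kinase, Mcm10, Cdc45 and the GINS complex turn the loaded ring into an active helicase. Polymerase alpha with primase then lays down RNA-DNA primers, polymerases delta and epsilon extend them on the clamp PCNA, RPA covers the single strand, and Fen1 and Lig1 join the lagging-strand pieces. Ribonucleotide reductase (Rrm1 and Rrm2) and thymidylate synthase (Tyms) supply the nucleotides. Many of these genes are known targets of the E2F transcription factors and peak around the entry into S phase.

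The Sfpq transcript used, the one with the highest mean, is a RefSeq record of the non-coding kind. It stood at 184, 202 and 218 RPKM in control, 185, 163 and 169 RPKM in heterozygous and 26.1, 28.6 and 27.6 RPKM in homozygous libraries. The homozygous level was 13.6% of control. The heterozygous level was 85.6%, its first library lay within the control range, and the difference did not pass (log2 -0.22 ± 0.07, limma, adjusted p = 0.709), so this transcript checks the homozygous label and not the heterozygous one. The extraction protocol names Sfpq+/- in both places where the titles and genotype labels give a heterozygous and a homozygous group, and the titles were followed. Differences were tested with limma on log2(RPKM + 0.5) over the 12159 genes that averaged 0.5 RPKM or more, all 9 libraries together, and a gene was called where the Benjamini-Hochberg adjusted p over all these genes was below 0.05. Log2 changes are on that scale and are given ± SE. Sex was inferred from the RNA of sex-linked genes. The control group held 2 female and 1 male embryos, the heterozygous group 3 males, and the homozygous group 1 female and 2 males. Depth is not given in the files. The steps between low values put it at roughly 170 M to 204 M reads per library, within a search range set in advance. A depth outside that range could not be returned. The design text counts 3 embryos per genotype, and no source names litters or preparation batches.

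Of the 40 replication genes, 26 fell in the homozygous cortex against control, none rose and 14 did not pass. Over all genes tested, 19.9% were called lower and 14.4% higher in that comparison. The median log2 change of the 40 genes was -0.24 (range -1.06 to 0.03), beside a median of -0.01 over all genes, and 37 of the 40 changes were negative against 51.6% of all genes. In 27 of the 40, every homozygous library lay below every control library, which held for 25.6% of all genes. The steepest falls were those of Prim2 (to 47.2% of control), Rrm2 (56.6%), Gins1 (67.8%), Cdc45 (69.9%), Pcna (70.1%) and Pola1 (70.8%). At the other end, 7 genes had homozygous means within 5% of control: Orc2, Mcm3, Mcm4, Mcm6, Gins4, Pold2 and Rfc1. In bulk tissue, fewer cells in S phase and less RNA per cell cannot be told apart.

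**Figure D1:**
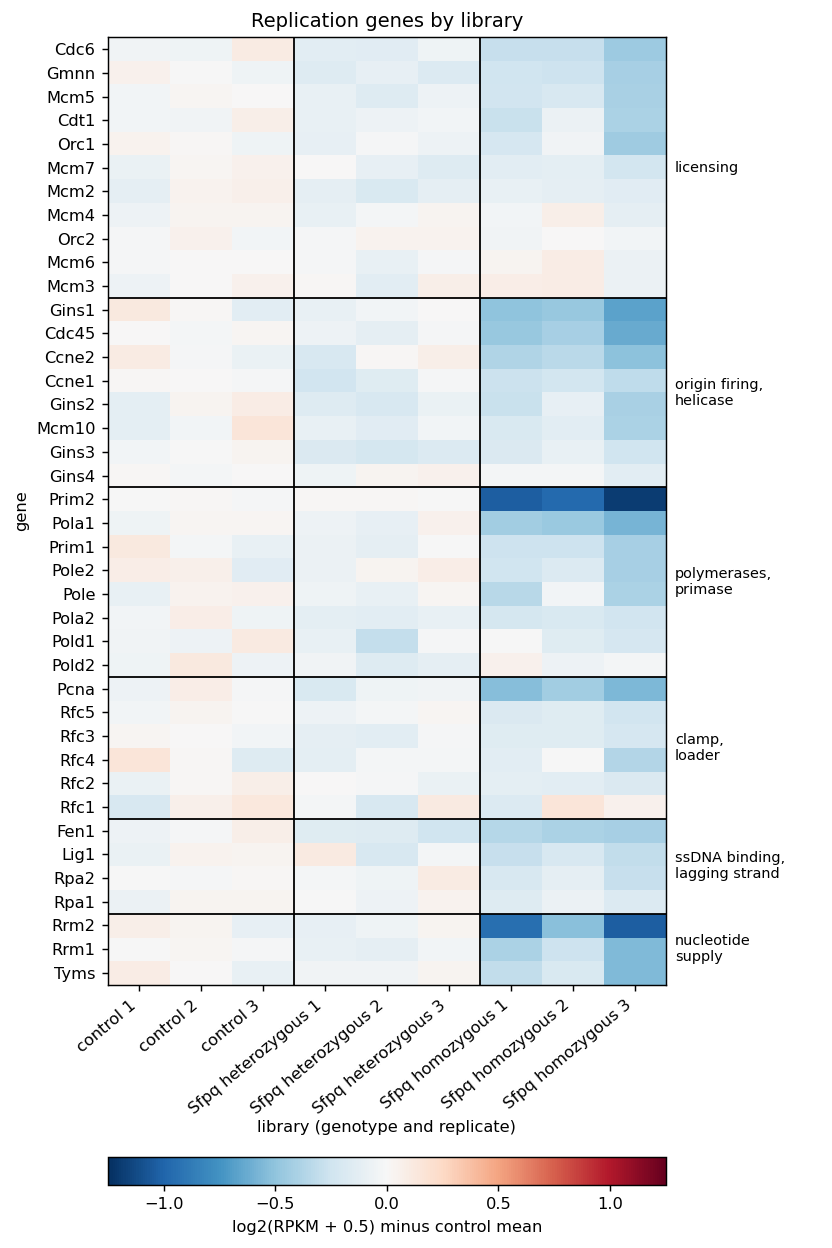
Each cell gives the log2(RPKM + 0.5) of 1 replication gene (rows, grouped by step) in 1 library (columns) minus the control mean of that gene, from blue (lower) to red (higher). The homozygous columns are blue in most rows, most deeply for Prim2 and Rrm2, and homozygous library 3 is the lowest of its group in 37 of 40 rows.

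The 3 homozygous libraries were not equally low. Averaged over the 40 genes, the log2 difference from the control mean was -0.25, -0.19 and -0.36 in homozygous libraries 1, 2 and 3, against -0.02 to 0.02 in the control and -0.09 to -0.02 in the heterozygous libraries. Homozygous library 3 was the lowest of its group in 37 of the 40 genes, against 22.5% of all genes. Library 2 was the highest in 30, and the share of all genes was not formed for that count. Of the 26 calls, 14 held in each of the 21 alternative analyses, with adjusted p up to 0.0469 by limma: Ccne1, Ccne2, Cdc45, Cdc6, Fen1, Gins1, Gmnn, Mcm5, Pcna, Pola1, Prim1, Prim2, Rrm1 and Rrm2. Their log2 changes ran from -1.06 to -0.27. The other 12 calls, with overlapping changes of -0.35 to -0.16, were lost in at least 1 alternative. Without control library 2 the count was 15, without homozygous library 3 it was 17, and after centring each library on its median it was 14. Centring and quantile normalization also moved the split of all calls: 58.1% were lower as deposited, 45.8% after quantile normalization and 39.7% after median centring. No replication gene called in this comparison changed sign in any alternative.

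**Figure D2:**
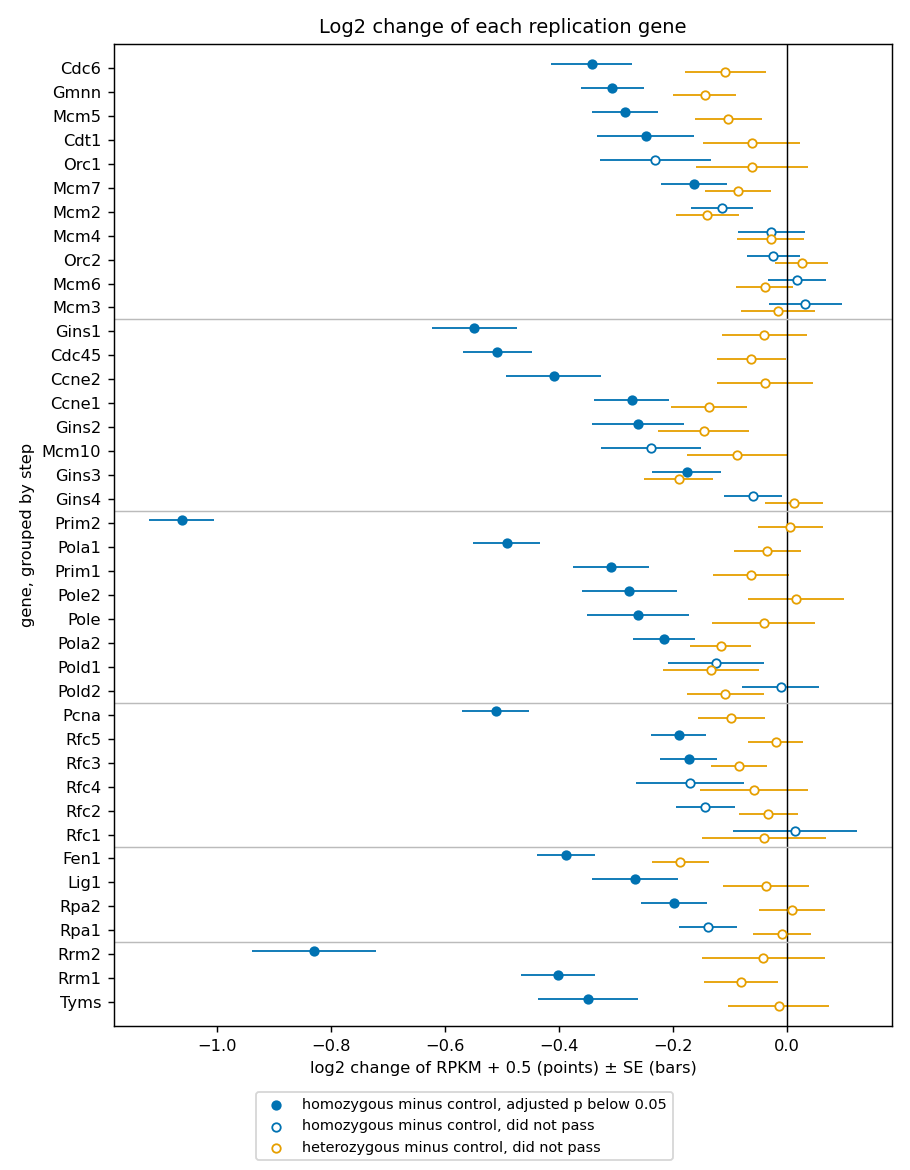
Points give the log2 change of each of the 40 replication genes and bars its SE, for homozygous (blue) and heterozygous (orange) against control, with filled points where the adjusted p was below 0.05. Filled points occur for 26 genes, all in the homozygous comparison and all left of 0, while no heterozygous change passed.

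Among the 11 licensing genes, 5 fell in the homozygous libraries and none rose, and the split ran through the complexes. The count was 3 in several alternatives, among them median centring and the replicate block. Here and in the steps below, counts stand beside 19.9% of all genes called lower and 14.4% called higher. The loader Cdc6 and the licensing inhibitor Gmnn fell, while most subunits of the MCM2-7 helicase did not pass. Cdc6 read 8.57, 8.54 and 9.56 RPKM in control, 8.07, 8.0 and 8.54 RPKM in heterozygous and 7.20, 7.16 and 6.36 RPKM in homozygous libraries. All 3 homozygous values lay below the other 6, with a log2 change against control of -0.34 ± 0.07 (limma, adjusted p = 0.00327). Gmnn went from 99.2, 95.7 and 92.4 RPKM in control to 80.7, 79.8 and 71.7 RPKM in homozygous libraries, a log2 change of -0.31 ± 0.06 (adjusted p = 0.00137), with the heterozygous libraries in between at 85.3, 89.4 and 85.1 RPKM. Cdt1, which Gmnn binds, was lower by less: 6.01, 5.93 and 6.50 RPKM in control against 4.99, 5.84 and 4.54 RPKM in homozygous libraries. Its change of -0.25 ± 0.08 (adjusted p = 0.0428) was lost when any single library other than homozygous library 2 was left out (adjusted p 0.0527 to 0.157). The level of Cdt1 relative to Gmnn was 0.0644 ± 0.0053 in control and 0.0661 ± 0.0062 in homozygous libraries (SD, n = 3).

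The 6 subunits of the MCM2-7 ring are needed in equal numbers, yet their transcripts did not move together. Mcm5 fell from 49.7, 51.8 and 51.1 RPKM in control to 42.9, 44.1 and 38.2 RPKM in homozygous libraries, a log2 change of -0.28 ± 0.06 (limma, adjusted p = 0.00306), and the groups did not overlap. Mcm3, by contrast, read 87.2, 91.2 and 94.5 RPKM in control and 96.4, 96.8 and 86.3 RPKM in homozygous libraries. Mcm6 read 126, 127 and 127 RPKM in control and 130, 135 and 121 RPKM in homozygous libraries. For Mcm3 and Mcm6 the ranges overlapped, at log2 changes of 0.03 ± 0.06 and 0.02 ± 0.05. The ratio of Mcm5 to Mcm3, formed after the values were seen, was 0.56 ± 0.016 in control, 0.527 ± 0.0201 in heterozygous and 0.448 ± 0.00707 in homozygous libraries (SD, n = 3). Mcm7, the most abundant of the 40 at 209 RPKM in control, fell to 89.3% of control (adjusted p = 0.0491), and it no longer passed without control library 2 (adjusted p = 0.139), control library 3 (0.137), heterozygous library 2 (0.0681) or any homozygous library (0.0642 to 0.16). Mcm2 stood at 92.3% of control (adjusted p = 0.137, and 0.0284 without control library 1) and Mcm4 at 98.2%. Of the origin recognition complex, Orc2 stood at 98.3% of control. Orc1, the subunit made afresh in each cycle and the lowest of the 40 at 2.52 RPKM in control, stood at 82.9% (adjusted p = 0.0929, and 0.0238 without homozygous library 2).

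Promoter windows were compared for the letters bound by E2F because members with and without a fall share them. RefSeq (GRCm38.p6) gave a window of 250 bases before to 50 after the start for 31 of the 40 genes. The 9 without a window were Prim2, Gins1, Gmnn, Gins2, Ccne2 and Pole, which fell, and Mcm4, Gins4 and Rfc2, which did not pass. The counts below therefore leave out some of the steepest falls, among them Prim2 and Gins1. The letters searched on both strands were TTTCCCGC, TTTGGCGC, TTTCGCGC and TTTGCCGC, each overlapping match counted, and CCAAT, the letters of factor NF-Y, which can share bases with them. E2F letters were present for 13 of the 31 genes (41.9%), against 2.6% of all 27025 genes with a window and 5% of the 9661 tested genes with one. By step they were present for 7 of 9 licensing genes, 1 of 4 firing genes, 3 of 6 polymerase genes, 1 of 5 clamp and loader genes, 1 of 4 lagging-strand genes and none of 3 nucleotide genes. Among members that fell they were present for 9 of 20, and among those that did not pass for 4 of 11. CCAAT was present for 20 of 31 members (64.5%), 41.1% of all genes and 44% of tested genes. It was present for 11 of the 20 members that fell and 9 of the 11 that did not pass. The 250 bases before the start are shown for 5 genes, with E2F letters in capitals: Mcm6, which did not pass, Mcm5, Cdc6 and Pola1, which fell, and Rrm2, which fell most in its group and has none. The windows lie at chr1:128359706-128359955 (minus strand) for Mcm6, chr8:75109259-75109508 (plus) for Mcm5, chr11:98907901-98908150 (plus) for Cdc6, chrX:93632156-93632405 (minus) for Pola1 and chr12:24708004-24708253 (plus) for Rrm2.
Mcm6: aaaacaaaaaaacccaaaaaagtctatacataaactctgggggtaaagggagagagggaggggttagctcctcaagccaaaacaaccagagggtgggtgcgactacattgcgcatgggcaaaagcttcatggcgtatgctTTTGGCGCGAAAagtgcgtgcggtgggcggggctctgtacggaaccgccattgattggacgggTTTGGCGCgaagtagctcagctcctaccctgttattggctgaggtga
Mcm5: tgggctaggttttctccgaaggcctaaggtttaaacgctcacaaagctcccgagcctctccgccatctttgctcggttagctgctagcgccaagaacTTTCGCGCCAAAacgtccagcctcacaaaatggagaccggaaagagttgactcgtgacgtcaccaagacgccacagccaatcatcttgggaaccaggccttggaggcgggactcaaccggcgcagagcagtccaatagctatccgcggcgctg
Cdc6: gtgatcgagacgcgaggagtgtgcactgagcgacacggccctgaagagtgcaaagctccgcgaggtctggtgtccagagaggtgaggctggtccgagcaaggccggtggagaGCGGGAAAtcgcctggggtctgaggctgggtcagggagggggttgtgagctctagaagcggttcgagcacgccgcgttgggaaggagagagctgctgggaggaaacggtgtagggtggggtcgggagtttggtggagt
Pola1: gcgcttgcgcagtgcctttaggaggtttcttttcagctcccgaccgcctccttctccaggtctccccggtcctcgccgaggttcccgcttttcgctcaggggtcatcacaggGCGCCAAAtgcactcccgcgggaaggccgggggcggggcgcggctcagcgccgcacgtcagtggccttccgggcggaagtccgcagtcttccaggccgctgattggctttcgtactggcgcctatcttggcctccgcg
Rrm2: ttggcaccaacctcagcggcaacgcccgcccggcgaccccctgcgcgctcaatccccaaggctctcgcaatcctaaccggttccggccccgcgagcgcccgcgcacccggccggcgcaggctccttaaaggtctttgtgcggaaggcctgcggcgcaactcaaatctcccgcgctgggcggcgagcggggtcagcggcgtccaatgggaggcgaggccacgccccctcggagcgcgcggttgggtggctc

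The Mcm6 window holds 3 matches, 2 of which overlap on opposite strands, and the Mcm5 window holds 2 that overlap in the same way. Mcm6, with the most matches of the 31 genes, stood at 101% of control and Mcm5 at 82.1%. A match is a run of letters, and none says only that these letters are not in the window.

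In the step of origin firing and helicase assembly, 6 of 8 genes fell in the homozygous libraries, where 19.9% of all genes were called lower. The 2 largest changes were of helicase partners. Cdc45 read 27.3, 26.7 and 27.6 RPKM in control, 26.1, 25.2 and 26.9 RPKM in heterozygous and 19.4, 20.3 and 17.4 RPKM in homozygous libraries. Control and heterozygous libraries were close together and all 3 homozygous libraries lay well below, at a log2 change of -0.51 ± 0.06 (limma, adjusted p = 7.86e-05). Gins1, 1 of the 4 GINS subunits, read 30.4, 28.0 and 25.3 RPKM in control, 26.0, 27.2 and 28.0 RPKM in heterozygous and 19.5, 19.9 and 17.3 RPKM in homozygous libraries (log2 change -0.55 ± 0.07, adjusted p = 0.000199). Its partner Gins4 did not pass: 39.9, 38.6 and 39.6 RPKM in control against 38.7, 38.7 and 35.8 RPKM in homozygous libraries. The Gins1 to Gins4 ratio, a pair picked after the values were seen, was 0.709 ± 0.0631 in control and 0.5 ± 0.0158 in homozygous libraries (SD, n = 3). Gins2 and Gins3 fell to 83.3% and 88.0% of control. Gins2 no longer passed when control library 2 (adjusted p = 0.0875) or 3 (0.0864) or homozygous library 1 (0.0727) or 3 (0.104) was dropped. Gins3 no longer passed when any library but homozygous library 2 was dropped (0.0512 to 0.144).

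Both cyclins E, which start S phase with the kinase Cdk2, fell. Ccne2 read 14.4, 13.2 and 12.6 RPKM in control, 11.5, 13.54 and 14.1 RPKM in heterozygous and 10.2, 10.5 and 9.21 RPKM in homozygous libraries, at a log2 change of -0.41 ± 0.08 (limma, adjusted p = 0.00303). Ccne1 read 10.5, 10.4 and 10.3 RPKM in control and 8.49, 8.77 and 8.23 RPKM in homozygous libraries (-0.27 ± 0.07, adjusted p = 0.00837). For Ccne1 the heterozygous libraries spanned the gap between the other groups, at 8.69, 9.26 and 10.3 RPKM. Mcm10, which helps activate the helicase, stood at 84.1% of control without passing (adjusted p = 0.0556); it passed without control library 1 (0.0317) and without homozygous library 2 (0.039).

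Polymerase alpha-primase, the enzyme that starts every new strand, fell in all 4 of its subunits, and by unequal amounts, where 19.9% of all genes were called lower. Prim2, the large primase subunit, read 33.8, 34.3 and 33.6 RPKM in control, 34.2, 34.2 and 33.7 RPKM in heterozygous and 16.3, 17.0 and 14.6 RPKM in homozygous libraries. The 6 control and heterozygous libraries lay within 33.6 to 34.3 RPKM and all 3 homozygous ones far below, a log2 change of -1.06 ± 0.06 (limma, adjusted p = 1.80e-07) and the largest among the 40. Prim1, the catalytic primase subunit, went from 39.7, 35.8 and 34.0 RPKM to 30.3, 30.4 and 27.3 RPKM (-0.31 ± 0.07, adjusted p = 0.0043). The Prim2 to Prim1 ratio, chosen after the values were seen, was 0.933 ± 0.0727 in control, 0.977 ± 0.0421 in heterozygous and 0.545 ± 0.0127 in homozygous libraries (SD, n = 3). Pola1, the catalytic polymerase subunit, read 34.8, 36.8 and 36.9 RPKM in control, 34.7, 33.8 and 37.6 RPKM in heterozygous and 26.7, 26.1 and 24.0 RPKM in homozygous libraries. Its change was -0.49 ± 0.06 (adjusted p = 8.58e-05), beside -0.22 ± 0.05 for its partner Pola2 (adjusted p = 0.00967, and 0.0553 without control library 2).

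Of polymerase epsilon, which copies the leading strand, Pole and Pole2 fell to 83.2% and 81.7% of control (limma, adjusted p = 0.0438 and 0.0247). For Pole the ranges overlapped, 11.2, 12.3 and 12.4 RPKM in control against 9.28, 11.6 and 8.93 RPKM in homozygous libraries. Leaving out control library 2 (adjusted p = 0.129) or 3 (0.107), any heterozygous library (0.0538 to 0.0583) or homozygous library 1 (0.141) or 3 (0.156) ended that call. Pole2 no longer passed when control library 1 (0.0791) or 2 (0.0943), homozygous library 1 (0.052) or homozygous library 3 (0.0952) was dropped. Of polymerase delta, which copies the lagging strand, Pold1 stood at 91.6% and Pold2 at 99.1% of control, and neither passed.

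Prim2 and Pola1 are also the only 2 of the 40 genes that span at least 100 kb in GRCm38, at 216 kb on chromosome 1 and 328 kb on chromosome X. Over all genes tested, 41.8% of the 1767 that span at least 100 kb were called lower, with a median log2 change of -0.14, against 16.2% of the 10386 shorter ones, with a median of 0.00. The 38 shorter replication genes span 3.9 to 76.8 kb; 24 of them fell, with a median of -0.23. Rrm2, at 5.9 kb, and Pcna, at 3.9 kb, are among the shortest and among the steepest falls. Other short genes changed less: Cdt1 (5.12 kb) stood at 83.3%, Mcm7 (7.53 kb) at 89.3% and Pold2 (6.08 kb) at 99.1% of control. Across the 40 genes, which share libraries and are not independent, the log2 change against log10 span gave a Pearson r of -0.21 and a Spearman rho of -0.01, and 0.24 and 0.13 without Prim2 and Pola1. Against the log2 control level these were -0.07 and 0.05.

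**Figure D3:**
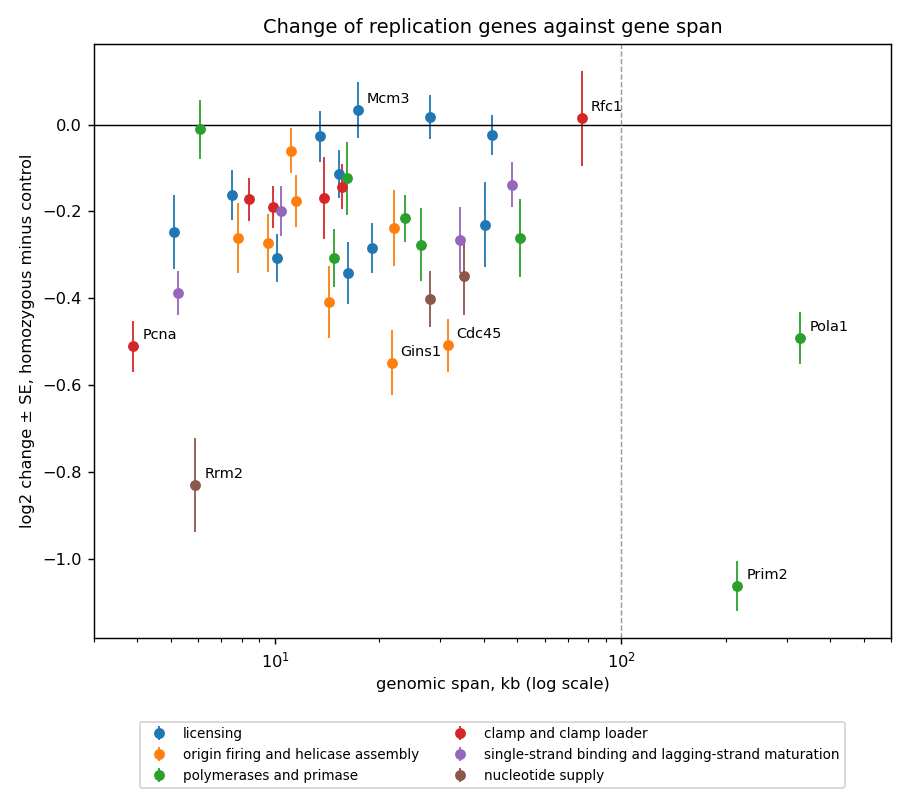
Points give the log2 change (homozygous minus control) of each replication gene and bars its SE against the gene's genomic span in kb on a log axis, coloured by step, with a dashed line at 100 kb. Prim2 and Pola1 lie right of the line. Rrm2 and Pcna fell steeply at 5.9 and 3.9 kb, while Pold2, at 6.08 kb, had a log2 change of -0.01.

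Of the clamp and its loader, the clamp changed and the loader did so by little. Pcna, the ring that holds polymerases on DNA, read 195, 214 and 201 RPKM in control, 178, 195 and 197 RPKM in heterozygous and 140, 150 and 137 RPKM in homozygous libraries. The homozygous values did not reach those of the other groups, at a log2 change of -0.51 ± 0.06 (limma, adjusted p = 6.22e-05). Among the 5 subunits of replication factor C, which opens and loads the ring, Rfc3 and Rfc5 fell, to 88.6% and 87.5% of control (adjusted p = 0.0201 and 0.0108). Rfc5 did not pass once control library 2 was dropped (0.0544), nor Rfc3 once control library 1 (0.0559), control library 2 (0.0689) or homozygous library 3 (0.0706) was. Rfc2 and Rfc4 stood at 90.4% and 88.9% without passing (0.0546 and 0.199), and Rfc2 passed without control library 1 (0.0235). The large subunit Rfc1 read 14.9, 17.9 and 18.8 RPKM in control and 15.2, 19.1 and 17.8 RPKM in homozygous libraries, and the groups overlapped.

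On the lagging strand, the flap nuclease Fen1 had the largest change. Fen1 read 67.4, 69.6 and 74.0 RPKM in control, 63.3, 62.9 and 59.1 RPKM in heterozygous and 54.9, 53.2 and 52.7 RPKM in homozygous libraries, so that the 3 groups did not overlap in any pair. The homozygous change was -0.39 ± 0.05 (limma, adjusted p = 0.000145) and the heterozygous change -0.19 ± 0.05, which did not pass (adjusted p = 0.565). Lig1, the ligase that seals the pieces, fell to 82.8% of control (adjusted p = 0.0184). Rpa2, of the single-strand binding complex, fell to 87.1% (adjusted p = 0.0211). Both calls were lost without control library 2 (0.071 for Lig1 and 0.0568 for Rpa2), control library 3 (0.0502 and 0.0506), homozygous library 1 (0.0566 and 0.0547) or homozygous library 3 (0.0597 and 0.0824). Rpa1, the large subunit of that complex, stood at 90.8% of control without passing (adjusted p = 0.0593), and passed without control library 1 (0.035) or homozygous library 2 (0.0434).

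All 3 genes of nucleotide supply fell, where 19.9% of all genes were called lower. Their median log2 change of -0.40 was the lowest of the 6 steps. Rrm2 encodes the small subunit of ribonucleotide reductase, the one whose protein level follows S phase. Its transcript read 89.0, 86.6 and 79.2 RPKM in control, 79.1, 81.8 and 86.6 RPKM in heterozygous and 44.0, 58.9 and 41.3 RPKM in homozygous libraries. The groups were far apart although homozygous library 2 stood above the other 2, and the log2 change was -0.83 ± 0.11 (limma, adjusted p = 0.000153). Rrm1, the large subunit, went from 140, 143 and 139 RPKM to 107, 117 and 96.0 RPKM (-0.40 ± 0.07, adjusted p = 0.000682). Textbook accounts describe its protein as steadier through the cycle, and only RNA was measured here. The Rrm2 to Rrm1 ratio, picked after the values were seen, was 0.604 ± 0.0341 in control and 0.449 ± 0.0472 in homozygous libraries (SD, n = 3). Tyms, which makes thymidylate, read 12.5, 11.8 and 10.9 RPKM in control and 9.35, 10.2 and 7.84 RPKM in homozygous libraries (-0.35 ± 0.09, adjusted p = 0.0104), and did not pass after median centring (adjusted p = 0.0531).

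**Figure D4:**
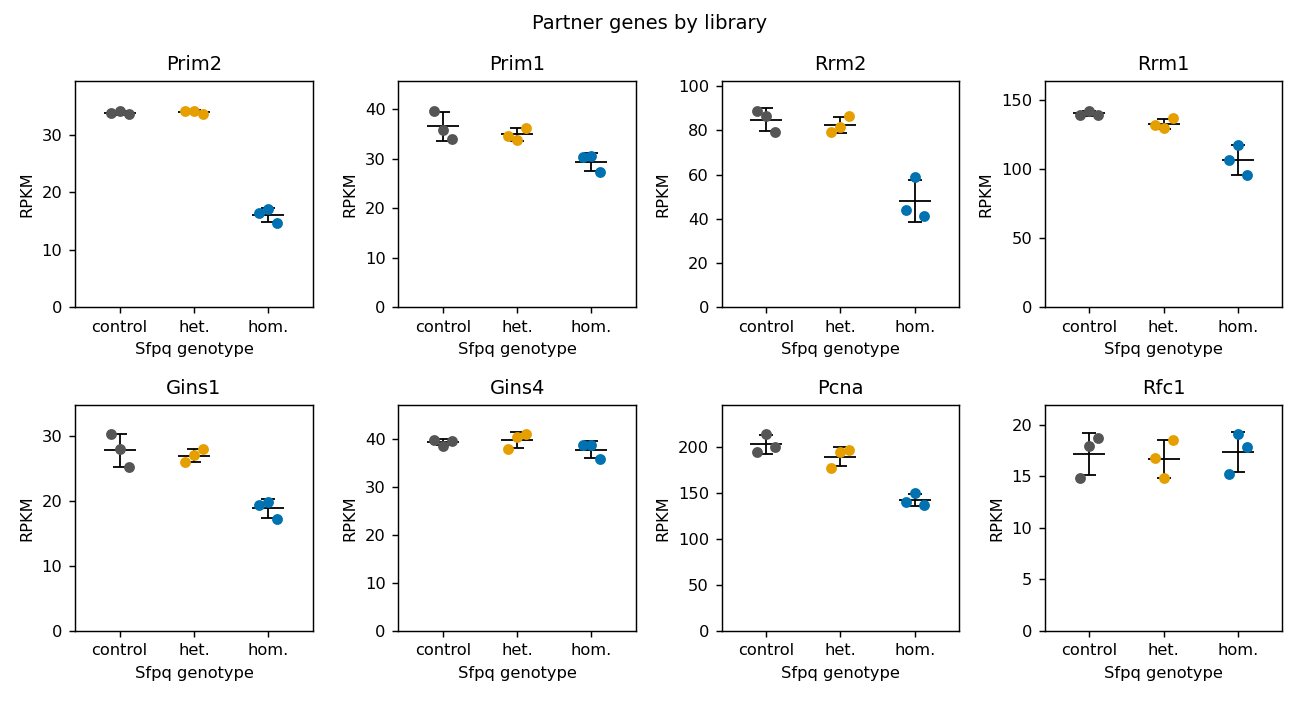
Points give RPKM in each library, with the mean and SD of each group, for Prim2 and Prim1, Rrm2 and Rrm1, Gins1 and Gins4, and Pcna and Rfc1, which work together; every axis starts at 0. In each pair the first gene is lower in all 3 homozygous libraries than in all 6 others, and Gins4 and Rfc1 overlap between groups.

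In heterozygous libraries no replication gene was called against control, as no gene was among the 12159 tested (0%), where 699 genes had an unadjusted p below 0.05 in limma. Among the 40, 4 had such an unadjusted p: Fen1, Gins3, Gmnn and Mcm2. The lowest adjusted p of the 40 was 0.565. Their median log2 change was -0.06 (range -0.19 to 0.03), and 35 of 40 were negative against 54.2% of all genes. In 6 genes all 3 heterozygous libraries lay below all control libraries (Gmnn, Mcm5, Gins3, Pola2, Fen1 and Rrm1), which held for 7.54% of all genes. Gins3 read 8.90, 9.06 and 9.36 RPKM in control, 7.97, 7.78 and 8.02 RPKM in heterozygous and 7.97, 8.49 and 7.58 RPKM in homozygous libraries, so its heterozygous level was as low as its homozygous one. Its heterozygous change was -0.19 ± 0.06 (adjusted p = 0.709).

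Against heterozygous libraries, 18 of the 40 genes fell in homozygous libraries and none rose, where 18.3% of all genes were called lower and 14.6% higher (55.6% of calls lower as deposited, 46.4% after quantile normalization and 38% after median centring). The median log2 difference of the 40 was -0.17, beside 0.00 for all genes. In 22 of the 40, all homozygous libraries lay below all heterozygous ones, as in 24.2% of all genes. Both comparisons use the same homozygous libraries, so their counts are not independent. By step, 3 of 11 licensing, 3 of 8 firing, 4 of 8 polymerase, 2 of 6 clamp, 3 of 4 lagging-strand and 3 of 3 nucleotide genes fell. The 8 genes called in each alternative were Prim2 (log2 -1.07 ± 0.06, limma, adjusted p = 2.21e-07), Rrm2 (-0.79 ± 0.11), Gins1 (-0.51 ± 0.07), Pola1 (-0.46 ± 0.06), Cdc45 (-0.45 ± 0.06), Pcna (-0.41 ± 0.06), Ccne2 (-0.37 ± 0.08) and Rrm1 (-0.32 ± 0.06). The count was 10 without heterozygous library 3, 10 without homozygous library 3 and 8 after median centring.

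Further genes of the pathway, listed by function, also held many that fell and a few that rose. Of 50 further replication genes, 26 fell and 3 rose in homozygous against control libraries, with a median log2 change of -0.25. Of all genes tested, 19.9% were called lower and 14.4% higher in that comparison. In nucleotide metabolism 6 of 7 fell, and Samhd1, which breaks down deoxynucleotides and is named after its values were seen, rose to 134% of control. Tk1, thymidine kinase of S phase, went from 25.3 ± 0.36 to 12.8 ± 1.29 RPKM (SD, n = 3; log2 -0.95 ± 0.07, limma, adjusted p = 1.64e-06), Dctd to 58.0% and Dut, the dUTP hydrolase, to 72.8% of control. Of 20 further fork genes 12 fell and none rose, among them the RNase H2 subunits Rnaseh2b (68.7% of control) and Rnaseh2a (70.8%), and the topoisomerase Top2a (67.4%). Of 14 further initiation genes 6 fell, among them Ccna2 (69.4%) and Dbf4 (78.0%), the activator of the kinase Cdc7. In that list Orc3 rose, and so did Orc4 (to 113% of control, named after its values were seen). Orc3 went from 12.4, 12.8 and 11.9 RPKM to 14.6, 15.5 and 15.1 RPKM (0.27 ± 0.05, adjusted p = 0.0022). Of 9 genes for copying chromatin, 2 fell, Uhrf1 and Chaf1b, a share near that of all genes.

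Regulators of S-phase entry did not all move one way. The counts below stand beside 19.9% of all genes called lower and 14.4% called higher. Of 13 genes of the E2F and Rb family 7 fell and 1 rose, Tfdp2, named after its values were seen. E2f3, an activator, went from 3.51, 3.91 and 4.06 RPKM in control to 2.41, 2.49 and 2.40 RPKM in homozygous libraries (log2 -0.56 ± 0.07, limma, adjusted p = 0.000147), and its partner Tfdp1 fell to 79.4% of control. E2f1, a further activator, read 1.95, 2.01 and 2.06 RPKM in control and 2.27, 2.20 and 2.22 RPKM in homozygous libraries without passing (adjusted p = 0.187). Of 5 inhibitors of cyclin-dependent kinases that could be tested 3 fell, Cdkn2c most, to 37.8% of control, and Cdkn1a rose from 0.557, 0.587 and 0.587 RPKM to 1.23, 0.80 and 1.20 RPKM (0.54 ± 0.11, adjusted p = 0.00284). Of 15 genes of mitosis 11 fell and none rose, with a median of -0.48. Their log2 difference from control averaged -0.51, -0.30 and -0.63 in homozygous libraries 1, 2 and 3, the same order as for the replication genes. Mki67 did not pass, at 18.7 ± 2.79 against 14.5 ± 4.78 RPKM (SD, n = 3; adjusted p = 0.129).

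Markers of the cell types of the cortex were read beside these changes. Here too, 19.9% of all genes were called lower and 14.4% higher in homozygous against control libraries. Of 13 radial glia markers 5 fell and 1 rose, Vim, their summed level running from 1980 to 2162 RPKM in control and 1845 to 1936 RPKM in homozygous libraries. Sox2 read 88.3, 96.5 and 107 RPKM in control and 106, 93.4 and 100.1 RPKM in homozygous libraries, while Prom1 and Lhx2 fell to 62.7% and 62.1% of control. Of 8 intermediate progenitor markers 3 fell (Neurog2, Insm1 and Eomes), and the summed level went from 161.9 to 202.2 RPKM in control to 115 to 122.5 RPKM in homozygous libraries. Of 14 neuron markers 5 fell, Rbfox3 and Sox5 most, and 3 rose (Dcx, Tbr1 and Neurod1, named after their values were seen), with sums of 750.6 to 874.1 RPKM and 644.1 to 810.6 RPKM. Microglia markers were higher by sum, 22.16 to 27.7 RPKM in control and 29.91 to 38.87 RPKM in homozygous libraries, with 4 of 10 called (C1qa, C1qb, Aif1 and Trem2). Erythroid markers were lower by sum, 2231 to 2856 RPKM against 1831 to 2233 RPKM, and Slc4a1 fell to 62.1% of control. The heterozygous sums were 1777, 2627 and 1805 RPKM. No erythroid marker was called between homozygous and heterozygous libraries. None of 8 endothelial markers was called. No marker of the 6 lists that could be tested was at 0 in any library. Sox2 and Tubb3, which define the progenitors and neurons that the labels name, were among the well detected genes in each library. The part of cell composition in the fall of the replication genes was not tested.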

How the data were processed

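RNA of 9 cerebral cortex samples was depleted of ribosomal RNA with Ribo-Zero and made into strand-keeping libraries, per the labels' protocols. The authors deposited 1 RPKM value per RefSeq transcript and library (30978 transcripts), per the file headers; CASAVA 1.8.2, TopHat 1.4.1 and the build mm9 are named in the submitters' processing notes. Neither the program behind the RPKM values, its annotation version nor its use of strand is stated there, so values of overlapping or antisense genes are uncertain. The files hold no counts: of low values, 64.7% to 67.8% lay within 0.1 of a whole read on lengths from another annotation, so the depths are estimates and count models were not used.

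RefSeq tables gave names to 30503 transcripts and GENCODE M21 to 182, while 293 stayed unnamed. Each gene was represented by its transcript with the highest mean RPKM. limma 3.58.1 in R 4.3.3 (all 9 libraries, 1 mean per genotype, empirical Bayes with trend) was run on log2(RPKM + 0.5) for the 12159 of 23201 genes with a mean of 0.5 RPKM or more, with Benjamini-Hochberg adjustment and a threshold of 0.05. All 40 replication genes passed that filter, the lowest at a mean of 2.34 RPKM. Of 147 entries in the other lists, 146 were matched. Simulated data of 12159 genes had independent libraries and 200 genes changed in homozygous against control, over 10 runs. Of log2 changes of 0.5, 84.6% were found, and of changes of 1, 99.6%, while 5.62% of calls were false. Smaller changes, as most replication genes had, were not simulated. Far more genes were called in the data, so these shares do not carry over to them. The median SE of a log2 change was 0.0825, and replicates of 1 group differed by 0.148 to 0.224 (SD over genes, log2).

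The replication genes and all lists were chosen with earlier results of these data known. Named genes are Sfpq, the 40 replication genes and, per other list, up to 4 genes with the lowest adjusted p in homozygous against control plus the first of the list; others are marked where they stand. Alternatives changed the pseudocount, filter, normalization, transcript, groups fitted, replicate block, trend or sex term, or left out 1 library. Promoter windows and spans are of GRCm38, not of the authors' build, and no mm9 coordinates were used. Groups were taken from the sample titles. The result of 1 marker gene is not reported here.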

Additional observations from a re-analysis of the deposited data

How the results depend on the processing

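The 40 replication genes were refitted under 21 alternatives, and no called change reversed. Signs turned only in values that passed in neither analysis. Of 840 refitted values per comparison, called genes included, 17 turned for homozygous against control. For heterozygous against control 28 turned, and for homozygous against heterozygous 10. Of the 26 calls against control, 14 were left after median centring (12 lost, adjusted p 0.0531 to 0.282), 20 after quantile normalization, 22 without a filter on low values, 22 with only the 2 groups compared, and 15 to 28 when 1 library was left out. The 18 calls against heterozygous libraries became 8 after median centring and 10 to 20 when 1 library was left out. No gene was called in heterozygous against control, except 1 with only those 2 groups in the fit and 0 to 1 when 1 library was left out. By step, the 5 licensing calls became 3 with no filter, quantile normalization, median centring, only the 2 groups or the replicate block, and 3 to 5 without 1 library. Median centring left 3 of 6 polymerase and primase calls, 1 of 3 clamp and loader calls and 1 of 3 single-strand and lagging-strand calls, and leaving out 1 library gave 3 to 6, 1 to 3 and 1 to 4. Firing calls (6) were 4 after median centring and 4 to 7 without 1 library; nucleotide calls (3) were 2 after median centring and stayed at 3 without 1 library. In homozygous against control, the median log2 change of all genes was -0.009 as deposited. It was 0.059 after median centring and 0.032 after quantile normalization. The cause of the shifts in calls was not tested, and leaving out a library also removes a sample from the fit. Over all genes, calls against control ran from 3111 to 4123 without 1 library. With sex in the model, Mcm7 did not pass (adjusted p = 0.0568) and Mcm10 did (0.0479).

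Replicate numbers did not pair the libraries throughout. The correlation of deviations between same-numbered libraries ran from -0.044 to 0.404, over 0.1 in 2 of 9 pairs. Both of these set control against homozygous libraries, number 1 (0.404) and number 3 (0.322), beside 0.068 for number 2. Control and homozygous libraries of unlike number ran from -0.44 to 0.096. Not every library correlated best with its own number, and whether control and homozygous libraries were paired is not known. With the replicate block, 23 replication genes were called against control (Cdt1, Mcm7 and Gins3 at adjusted p 0.0503 to 0.0676), 0 in heterozygous against control and 17 in homozygous against heterozygous. Over all genes the block gave 4429, 0 and 4267 calls.

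The SE differed between genes and did not simply follow level: it was 0.10 for Orc1 (2.52 RPKM in control), 0.06 for Gins3 and 0.11 for Rrm2. Levels without counts give no counting interval, 3 libraries a group leave changes near the SE undetected, and a gene that did not pass is not shown to be unchanged.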

Other observations

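For the 10 replication genes with more than 1 RefSeq transcript in the files, the homozygous level as a share of control differed between a gene's transcripts by 0.02 (Cdc45) to 2.76 (Gins1) percentage points. The transcript chosen therefore did not move those values by much.

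Among the 50 further replication genes, Tk1, the S-phase thymidine kinase, stood at 50.9% of control, close to the 47.2% of Prim2 and below the 56.6% of Rrm2. Samhd1, which degrades deoxynucleotides, read 4.90 ± 0.172 RPKM in control and 6.55 ± 0.292 RPKM in homozygous libraries (SD, n = 3; log2 0.38, limma with Benjamini-Hochberg adjustment, adjusted p = 0.00497).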
